A study of Rattus norvegicus with 14 samples.

Results

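Potassium channels and hyperpolarization-activated (HCN) channels set the excitability of dentate gyrus granule cells, the neurons that receive the main cortical input to the hippocampus. All probe sets whose platform annotation gives a single gene symbol beginning with Kcn, or Hcn followed by a digit, were taken from the array table, with Affymetrix control probe sets left out. These were 111 of 15866 probe sets and stand for 76 of the 10411 genes named by a single symbol. A probe set is a group of short oligonucleotides that measures 1 transcript or a few related ones. The genes were divided by the kind of protein into voltage-gated (Kv) subunits (30 genes), HCN channels (3), inward rectifiers (15), calcium-activated channels with their sodium-activated relatives (5), K2P leak channels (11) and auxiliary subunits (12).

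The samples were dentate gyrus from 14 young male Long-Evans rats, 3 to 4 months old, all of which had been trained in a standard water maze 2 to 3 weeks before. In a second maze, new to them, the rats then swam 8 trials to a visible platform within 1 session, with 8 min between trials. In the learning group (7 rats) the platform stayed in place and orienting cues were present. In the control group (7 rats) the platform was moved between trials and the surroundings held no informative cues. Both groups swam for 90 s without a platform 1 h after the session and were killed straight afterwards, and total RNA from each rat went onto 1 Affymetrix RAE230A array. The control rats therefore also swam, saw a visible platform and had the probe swim, so the comparison is between kinds of training and not between trained and home-cage animals. Values are log2 expression from GCRMA, and array medians lay between 5.09 and 5.117.

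Kv channels are tetramers that open on depolarization. The Kv1 and Kv4 families carry the currents that delay spikes and shape their number, Kv3 channels allow fast repolarization, and Kv7 (Kcnq) channels carry the M current, which damps repeated firing. Inward rectifiers hold the resting potential near the potassium equilibrium potential, and the Kir3 (GIRK) branch is opened by G protein beta-gamma subunits. Calcium-activated channels link calcium entry to the afterhyperpolarization, K2P channels provide background leak, and HCN channels carry an inward current at negative potentials. Auxiliary subunits change the gating and surface level of these pores.

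Probe sets were tested where their mean over the 14 arrays was at least 4 on the log2 scale. Of the 111 potassium channel and HCN probe sets, 44 passed (39.6%, against 59.2% of all 15866), and they covered 32 genes, while 44 genes had no tested probe set. The tested share was 19 of 41 probe sets for Kv subunits, 11 of 26 for inward rectifiers, 2 of 7 for calcium-activated channels, 2 of 15 for K2P channels, 10 of 19 for auxiliary subunits and 0 of 3 for HCN channels. The 67 probe sets not tested had means of 0.908 to 3.82, and their learning minus control differences lay between -0.07 and 0.10 log2 units. At such levels GCRMA values are near background, so these small differences say little about the transcripts. The genes with no tested probe set were 16 Kv genes (Kcna2, Kcna3, Kcna5, Kcnb2, Kcng3, Kcnh2, Kcnh4 to Kcnh8, Kcnq1, Kcns1 to Kcns3 and Kcnv2), 9 inward rectifiers (Kcnj1, Kcnj2, Kcnj5, Kcnj8, Kcnj10, Kcnj12, Kcnj13, Kcnj15 and Kcnj16), 9 K2P channels (Kcnk3 to Kcnk6, Kcnk9, Kcnk10, Kcnk12, Kcnk13 and Kcnk15), Kcnn3, Kcnn4 and Kcnt1, the auxiliary genes Kcnab3, Kcne1, Kcne3 and Kcnmb1, and Hcn2, Hcn3 and Hcn4.

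No potassium channel probe set passed the threshold. In limma's moderated test, 0 of 44 had a Benjamini-Hochberg adjusted p below 0.05 (0% of all 9387 tested probe sets did). At an unadjusted p below 0.05 there were 5 of 44 (11.4%), a share near the 13.1% found over all 9387 tested probe sets. Of the 5, 3 were higher in learning rats (6.43% of all tested probe sets were) and 2 were lower (6.67% were). The 5 probe sets belong to 4 genes: Kcnj4, lower in learning rats on both of its tested probe sets, and Kcna1, Kcna6 and Kcnv1, higher. Without control replicate 4 the count of 5 became 3, and over all arrays left out in turn it ran from 3 to 7. The matching shares over all tested probe sets are not given here, and the 13.1% belongs to the fit of all 14 arrays.

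**Figure D1:**
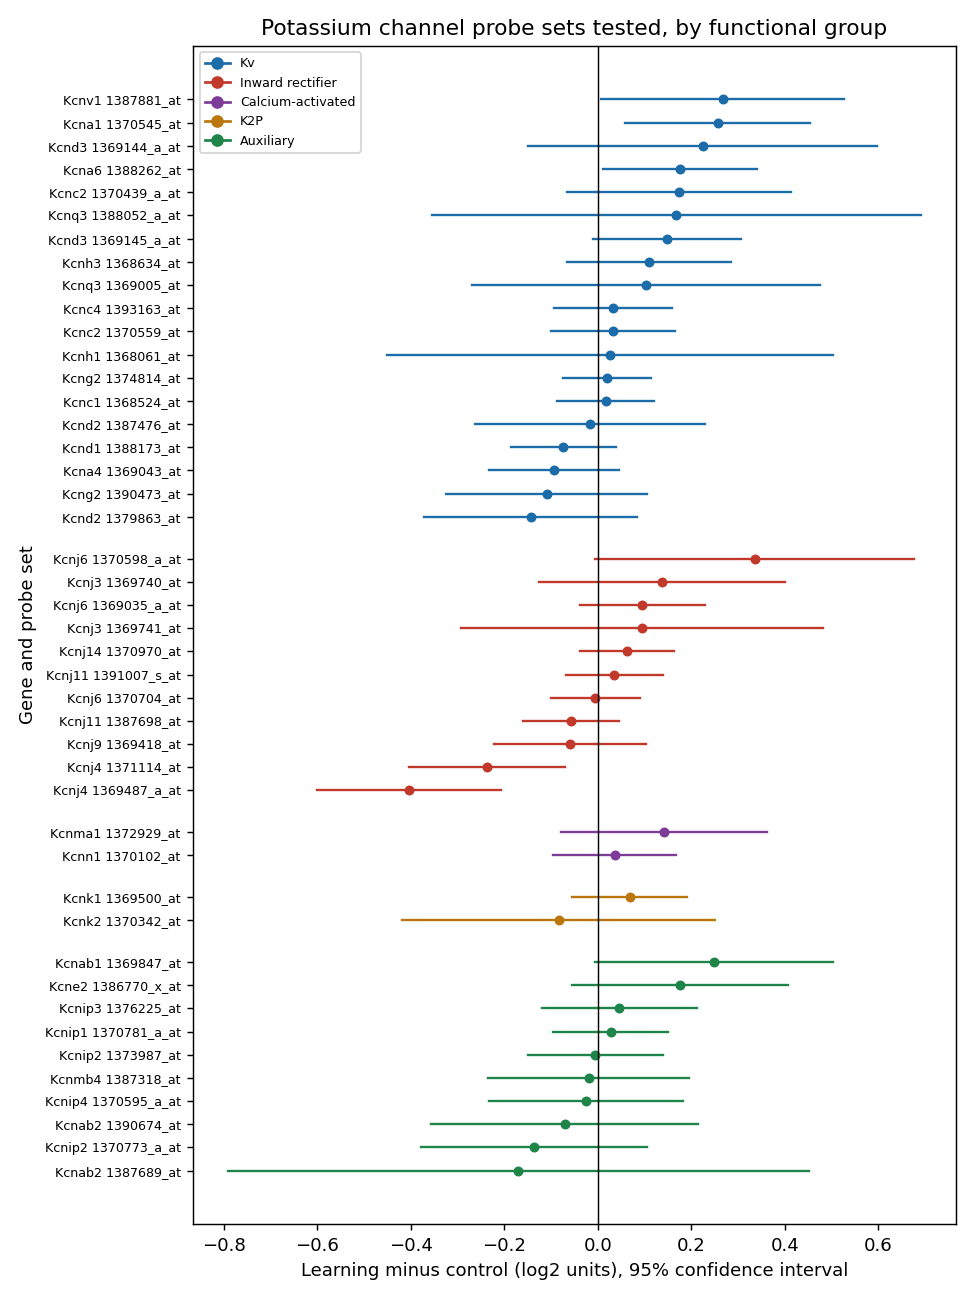
Learning minus control in log2 units for the 44 tested probe sets, ordered by size within 5 functional groups, with 95% confidence intervals from limma (7 and 7 arrays). The 2 Kcnj4 probe sets lie farthest to the left of those whose interval excludes 0, and 39 intervals include 0.

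Over the 32 tested genes, each standing for its tested probe set with the highest mean, 21 had a positive and 11 a negative learning minus control difference. The median difference was 0.03 log2 units, and the median size of a difference was 0.08. Over all 6697 tested genes, 50.6% were higher, the median was 0.0018 and the median size was also 0.08. In the Kv group 11 of 14 genes were higher, with a median of 0.07. The inward rectifiers were split 3 and 3, the auxiliary subunits 4 and 4, the K2P channels 1 and 1, and both calcium-activated genes were higher.

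**Figure D2:**
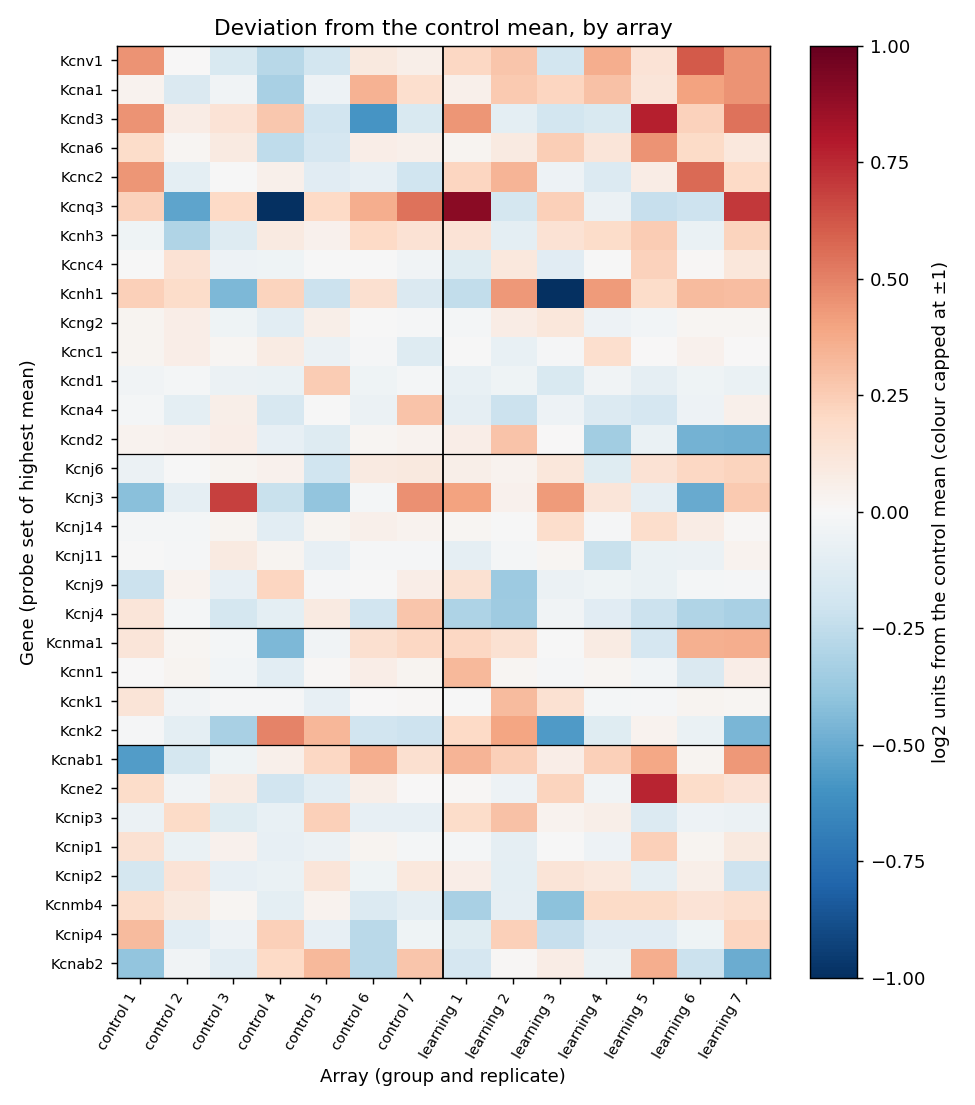
Deviation of each array from the mean of the control arrays, in log2 units, for the 32 tested genes (rows, probe set of highest mean, by functional group) in 7 control and 7 learning arrays (columns); colours are capped at 1 log2 unit. Kcnj4 was below the control median in every learning array, while Kcnq3 and Kcnh1 varied most between arrays of the same group.

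Among the inward rectifiers, Kcnj4 had the smallest p of all the channel genes. It encodes the strong inward rectifier Kir2.3, which helps to set the resting potential of forebrain neurons. On probe set 1369487_a_at, control rats had a lowest value of 4.16, a median of 4.36 and a highest value of 4.85, and learning rats 3.87, 3.97 and 4.15. Every learning array therefore lay below every control array, which was so, in either direction, for 0.405% of all tested probe sets (38 of 9387) and for 1 of the 44 channel probe sets. The gap between the groups was narrow: control replicate 3 was at 4.16 and learning replicate 1 at 4.15. The difference was -0.40 ± 0.09 log2 units (SE; 95% confidence interval -0.60 to -0.21), 1.32-fold (unadjusted p = 0.000516; limma adjusted p = 0.153). In tissue RNA, fewer cells that express a gene and less of its RNA per cell cannot be told apart.

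The brighter Kcnj4 probe set, 1371114_at, had control values from 7.24 to 7.71 with a median of 7.41, and learning values from 7.08 to 7.39 with a median of 7.13. All 7 learning arrays were below the control median, but the groups overlapped, since learning replicate 3 (7.39) and learning replicate 4 (7.31) lay within the control range. The difference was -0.24 ± 0.08 (SE; -0.40 to -0.07), 1.18-fold, with an adjusted p of 0.242 in limma. With both probe sets averaged it was -0.32 (adjusted p = 0.162 in limma). The first probe set is close to the filter level of 4.

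The proximal promoter of Kcnj4 is printed because Kcnj4 is the gene with the smallest p, beside that of Kcna6, the other one of the 4 genes named above that matched RefSeq's promoter table (build GRCr8). Each window runs from 250 bases before the annotated start to 50 after it, 5′ to 3′ on the gene's strand, and capitals mark TGACG, the core of the cAMP response element bound by CREB proteins, searched on both strands. Kcnj4 lies on the minus strand at chr7:112954498-112954797, and Kcna6 on the minus strand at chr4:161262303-161262602.
Kcnj4: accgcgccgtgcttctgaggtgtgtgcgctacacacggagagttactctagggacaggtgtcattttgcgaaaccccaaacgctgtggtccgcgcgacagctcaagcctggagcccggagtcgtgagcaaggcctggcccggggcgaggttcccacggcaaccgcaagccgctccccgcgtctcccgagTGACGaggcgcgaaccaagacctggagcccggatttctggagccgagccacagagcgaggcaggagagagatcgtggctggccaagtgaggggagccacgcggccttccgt
Kcna6: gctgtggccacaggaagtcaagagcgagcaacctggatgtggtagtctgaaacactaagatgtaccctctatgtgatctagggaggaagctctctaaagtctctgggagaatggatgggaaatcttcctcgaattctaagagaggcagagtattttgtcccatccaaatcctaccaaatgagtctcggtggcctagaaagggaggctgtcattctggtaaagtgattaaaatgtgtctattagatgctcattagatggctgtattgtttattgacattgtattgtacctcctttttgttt

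The Kcnj4 window had 1 TGACG, beginning 61 bases before the start on the gene's own strand, and the Kcna6 window had none. The windows differed in base composition, at 65.7% G+C with 30 CpG dinucleotides for Kcnj4 and 43% with 3 for Kcna6. TGACG was present in 21.2% of all 33469 promoter windows of the table and in 11 of the 57 windows (19.3%) of 51 channel genes. The full element TGACGTCA was in 1.83% of all windows and in 0 of the 57. GGGCGG, the core of the Sp1 site, was in 56.1% of the channel windows and 33.1% of all, and TATAAA in 3.51% and 14.2%. The median G+C content was 62.3% in channel windows and 51.7% in all. The matches are descriptions of the windows and were set against no expression value.

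The Kir3 (GIRK) genes showed smaller differences. Kcnj6 encodes GIRK2, and its brightest probe set, 1369035_a_at, ran from 9.95 to 10.25 in control rats (median 10.18) and from 10.04 to 10.38 in learning rats (median 10.27). The difference was 0.10 ± 0.06 (SE; adjusted p = 0.527 in limma). A second Kcnj6 probe set, 1370598_a_at, differed by 0.34 ± 0.16 (SE; interval -0.005 to 0.68; unadjusted p = 0.053, adjusted p = 0.388 in limma). Its learning replicates 1, 2 and 7 were at 5.01, 4.97 and 4.84, above the control maximum of 4.51, and the other 4 lay within the control range, whose lowest value was 3.65. The third tested Kcnj6 probe set, 1370704_at, differed by -0.0053. Kcnj3, which encodes GIRK1, ran from 6.53 to 7.63 in control rats (median 6.85) and from 6.44 to 7.37 in learning rats (median 7.06) on its brighter probe set, a difference of 0.09 ± 0.18 (SE). Leaving out control replicate 1 gave 0.02, leaving out control replicate 3 gave 0.21, and array weights gave -0.0042. Its other tested probe set differed by 0.14 ± 0.12 (SE), and Kcnj9, which encodes GIRK3, by -0.06 ± 0.08 (SE).

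Kcnj11, the pore of the ATP-sensitive channel, differed by -0.06 ± 0.05 (SE) on its brighter probe set and by 0.04 ± 0.05 (SE) on the other. Kcnj14, which encodes the inward rectifier Kir2.4, had control values of 5.40 to 5.56 and learning values of 5.49 to 5.68 and differed by 0.06 ± 0.05 (SE). Kcnj10, the Kir4.1 channel of astrocytes, was not tested, with control values from 2.98 to 3.19 and learning values from 3.01 to 3.50. Kcnj13, an inward rectifier of the choroid plexus, was not tested either, with 3.71 in control and 3.74 in learning rats.

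In the Kv1 family, Kcna1 encodes Kv1.1, a low-threshold channel of axons and terminals. Its values in control rats ran from 8.32 to 8.99 with a median of 8.61, and in learning rats from 8.69 to 9.09 with a median of 8.90. All 7 learning arrays were above the control median, and 2 of them, learning replicates 6 and 7, were above every control array. The Kcna1 difference was 0.26 ± 0.09 (SE; interval 0.06 to 0.45), 1.19-fold (unadjusted p = 0.0144; limma adjusted p = 0.276). Control replicate 4 was the lowest of the 14 arrays (8.32), and without it the difference was 0.20.

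Kcna6 encodes Kv1.6 and is the next gene to Kcna1 among protein-coding genes in the current rat gene table, with Kcna5 on the other side of Kcna1. On its brighter probe set Kcna6 ran from 4.26 to 4.69 in control rats (median 4.56) and from 4.53 to 4.96 in learning rats (median 4.63). Here 3 learning arrays exceeded every control array. The difference was 0.18 ± 0.08 (SE; interval 0.01 to 0.34; unadjusted p = 0.0374; limma adjusted p = 0.350), and it was 0.13 without control replicate 4 (unadjusted p = 0.085) and 0.13 without learning replicate 5 (unadjusted p = 0.0845). With the replicate number as a block the unadjusted p was 0.0723. The brighter Kcna6 probe set, with a mean of 4.60, is close to the filter level of 4. The other, with a mean of 1.72, was not tested. The third gene of the cluster, Kcna5, was below the filter, at 3.27 in control and 3.32 in learning rats.

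Kcna4 encodes Kv1.4, an A-type channel of axons. It differed by -0.09 ± 0.07 (SE), or -0.05 without control replicate 7, with a control median of 6.15 and highest value of 6.45, and learning values of 5.95 to 6.21. Kcna2 (Kv1.2) had a mean of 2.55 and Kcna3 one of 2.44, and neither was tested.

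Kcnv1 encodes Kv8.1, a subunit that is silent alone and changes the gating of other Kv subunits. It had the largest difference of any channel gene on its brightest probe set, 0.27 ± 0.12 log2 units (SE; interval 0.007 to 0.53), 1.20-fold. Control values ran from 6.17 to 6.89 with a median of 6.44, and learning values from 6.26 to 7.05 with a median of 6.72. The groups overlapped widely: control replicate 1 was at 6.89 and learning replicate 3 at 6.26. The unadjusted p was 0.0445 and the adjusted p 0.366 in limma. Without control replicate 4 the difference was 0.22 with an unadjusted p of 0.0965, and without learning replicate 6 it was 0.21 with an unadjusted p of 0.101.

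**Figure D3:**
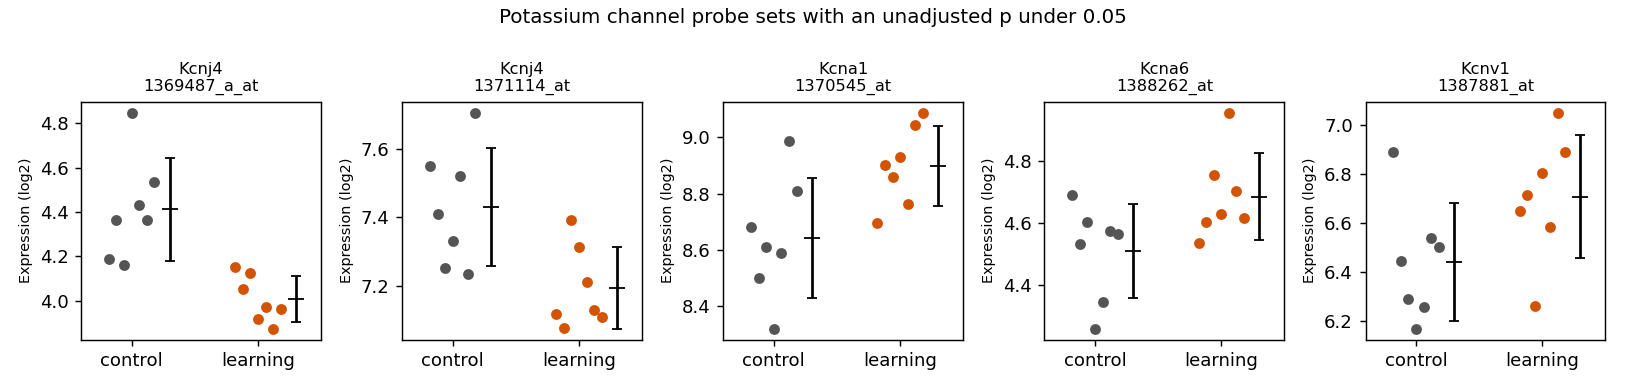
Log2 expression in each of the 7 control and 7 learning arrays for the 5 probe sets with an unadjusted p below 0.05; the bars give the mean and SD of each group, and the vertical axes do not start at 0. The groups do not overlap for Kcnj4 on 1369487_a_at, where the learning arrays lie between 3.87 and 4.15, and they overlap in the other 4 panels.

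Kv4 channels and their KChIP partners carry the dendritic A current. Kcnd2 encodes Kv4.2, and its brighter probe set had control values of 9.06 to 9.25 (median 9.23) and learning values of 8.71 to 9.47 (median 9.12). The learning group was wider than the control group (SD 0.29 against 0.07, n = 7 each), and the difference was -0.14 ± 0.11 (SE; adjusted p = 0.572 in limma). The other Kcnd2 probe set differed by -0.02 ± 0.12 (SE), and there the groups were similarly wide (SD 0.25 in learning against 0.22 in control rats). Kcnd3, which encodes Kv4.3, differed by 0.22 ± 0.18 (SE) and 0.15 ± 0.07 (SE), the latter with all 7 learning arrays above the control median and an unadjusted p of 0.0661 (adjusted p = 0.413 in limma). Kcnd1 differed by -0.07 ± 0.05 (SE).

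The KChIP genes Kcnip1, Kcnip2, Kcnip3 and Kcnip4 encode calcium-binding proteins that bring Kv4 channels to the surface. Kcnip3, also known as calsenilin and as the transcriptional repressor DREAM, ran from 7.81 to 8.17 in control rats (median 7.86) and from 7.80 to 8.23 in learning rats (median 7.96), a difference of 0.05 ± 0.08 (SE). With the CA1 marker mean as covariate the value was -0.05. Kcnip2 had control values of 9.87 to 10.18 and learning values of 9.84 to 10.17 on its brightest probe set, where it differed by -0.0051 ± 0.07 (SE), and differed by -0.14 ± 0.11 (SE) on the other tested one. Kcnip1 differed by 0.03 ± 0.06 (SE). Kcnip4, with control values of 4.74 to 5.32 and learning values of 4.78 to 5.24, differed by -0.02 ± 0.10 (SE). The 95% intervals of the brightest probe sets of these 4 genes lay between -0.23 and 0.21, so larger differences are outside them.

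Of the Kv3 genes, whose channels serve fast-spiking interneurons and some terminals, Kcnc1 differed by 0.02 ± 0.05 (SE), with control values of 7.65 to 7.85 and learning values of 7.70 to 7.94. Kcnc2 differed by 0.17 ± 0.11 (SE) on its brightest probe set and by 0.03 ± 0.06 (SE) on another, and Kcnc4 by 0.03 ± 0.06 (SE). Kcng2, a silent Kv subunit, differed by 0.02 on one probe set and by -0.11 on the other. Kcnh3, an ether-a-go-go-like channel of the forebrain, differed by 0.11 ± 0.08 (SE).

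Kcnq3, a subunit of the M channel, varied widely between rats. Its brighter probe set, 1388052_a_at, ran from 5.76 to 7.30 in control rats (median 6.97) and from 6.53 to 7.67 in learning rats (median 6.71). The difference of the means was 0.17 ± 0.25 (SE; interval -0.36 to 0.69), although the learning median was the lower one, and it was -0.000112 without control replicate 4, the lowest array. The second Kcnq3 probe set was between 3.76 and 4.40 in 13 arrays and at 5.32 in learning replicate 1, which also had the highest value of the first.

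Spread within the groups was itself large for several channel genes. The pooled within-group SD was in the top 5% of all tested probe sets for 6 of the 44 channel probe sets (13.6%), which belong to Kcnab2, Kcnq3, Kcnh1, Kcnj3 and Kcnd3. The median SD over the 44 was 0.181, against 0.160 over all tested probe sets. Kcnab2 encodes the Kv beta-2 subunit, an oxidoreductase-like protein that binds Kv1 channels. Its probe set 1387689_at ran from 6.34 to 8.22 in control rats. In learning rats it was at 7.91, 7.79 and 7.91 in replicates 1, 2 and 3 and between 6.70 and 6.90 in the other 4, with no value in between. The difference was -0.17 ± 0.29 (SE), and on the brighter Kcnab2 probe set it was -0.07 ± 0.13 (SE), with the learning values spread from 9.17 to 10.03. On that probe set learning replicates 1 to 3 did not stand apart. They did on some probe sets of other genes, so the split was not particular to Kcnab2. They were at 9.19 or above for Kcnd2 on 1379863_at, with the other learning arrays at 9.12 or below. For Kcnj3 on 1369740_at the limits were 5.89 and 5.72. For Kcnmb4 they were the lower ones, at 8.82 or below against 9.05 or above. The cause was not tested. Kcnh1, the ether-a-go-go channel, differed by 0.03 ± 0.22 (SE) and was at 3.11 in learning replicate 3 and at 4.10 or above in the other 6 learning arrays.

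**Figure D4:**
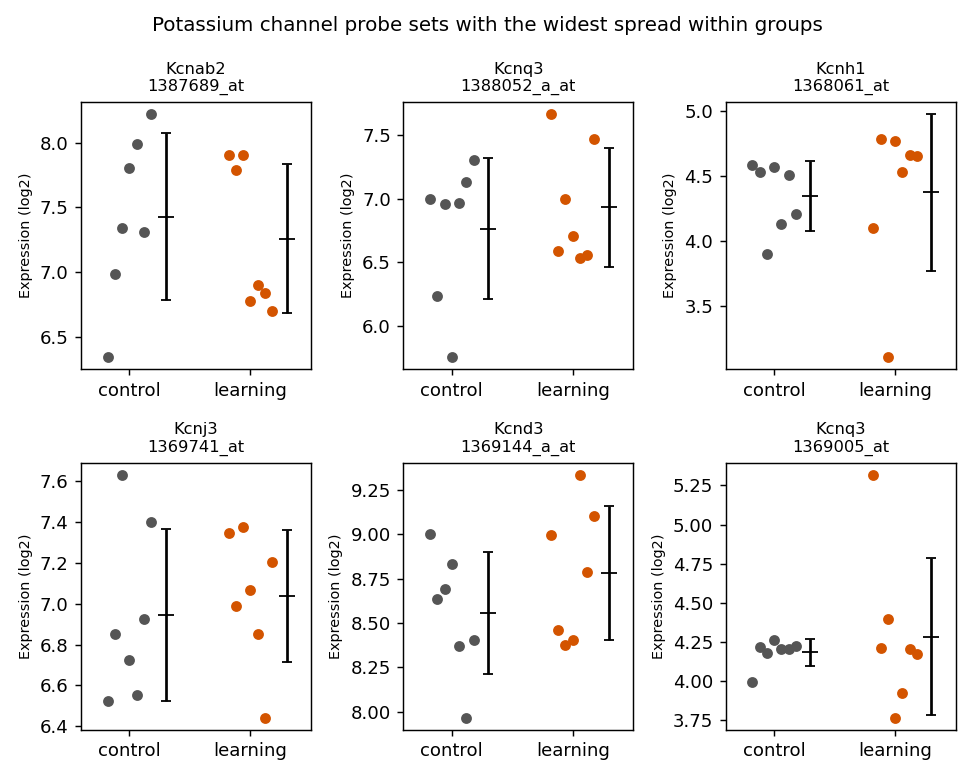
Log2 expression in each array for the 6 channel probe sets whose within-group SD was in the top 5% of all tested probe sets; bars give the mean and SD of 7 arrays, and the vertical axes do not start at 0. Kcnab2 on 1387689_at separates into 3 learning arrays between 7.79 and 7.91 and 4 between 6.70 and 6.90, and the second Kcnq3 probe set has a single high array at 5.32.

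Among the other auxiliary subunits, Kcnab1 encodes Kv beta-1, which confers inactivation on Kv1 channels. Its control values ran from 6.50 to 7.42 (median 7.11) and its learning values from 7.08 to 7.49 (median 7.30), and 6 of 7 learning arrays were above the control median. The difference was 0.25 ± 0.12 (SE; interval -0.005 to 0.50; unadjusted p = 0.0542, adjusted p = 0.389 in limma). Control replicate 1 was the lowest array, and without it the difference was 0.16. Kcnmb4, the neuronal beta-4 subunit of the BK channel, differed by -0.02 ± 0.10 (SE). Kcne2 had 1 tested probe set of 3, of the kind that can cross-hybridise (_x_at), with control values of 4.14 to 4.51 and learning values of 4.28 to 5.09. It differed by 0.18 ± 0.11 (SE), or 0.08 without learning replicate 5. Its other probe sets averaged 2.16 and 2.97.

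The calcium-activated group was measured by 2 genes. Kcnma1, the pore of the BK channel, ran from 7.60 to 8.25 in control rats (median 8.06) and from 7.88 to 8.41 in learning rats (median 8.20), and 3 learning arrays were above every control array. The difference was 0.14 ± 0.10 (SE; adjusted p = 0.564 in limma), and 0.07 without control replicate 4, the lowest at 7.60. Kcnn1, the SK1 channel, had control values of 4.32 to 4.49 and learning values of 4.28 to 4.75. The difference was 0.04 ± 0.06 (SE), and -0.01 when learning replicate 1 was left out. Kcnn3, Kcnn4 and Kcnt1 were below the filter, with means of 3.50, 3.05 and 3.58.

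The K2P leak channels were also measured by 2 genes. Kcnk1 (TWIK1) ran from 6.48 to 6.69 in control rats (median 6.55) and from 6.54 to 6.87 in learning rats (median 6.57), a difference of 0.07 ± 0.06 (SE) that was 0.03 without learning replicate 2. Kcnk2 (TREK1), a channel gated by stretch and lipids, ran from 6.14 to 6.97 and from 5.90 to 6.86, a difference of -0.08 ± 0.16 (SE) that was -5.2e-05 without control replicate 4. The other 9 K2P genes, among them Kcnk3 and Kcnk9 (TASK1 and TASK3), had no tested probe set.

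All HCN genes were below the filter. Hcn2 had a mean of 3.36, with control values from 3.28 to 3.56 and learning values from 3.16 to 3.42. Hcn3 averaged 2.54, and Hcn4 averaged 1.36.

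Lists of related genes that do not carry channel symbols were examined in the same fit. Of 29 partner proteins of these channels, 19 were tested. Differences were positive for 8 and negative for 11 of them, with a median of -0.03, and 3 had an unadjusted p below 0.05, none an adjusted one (0 called by limma), where 13.1% of all tested probe sets had an unadjusted p that low. Vapa, an endoplasmic reticulum protein that tethers clustered Kv channels at the plasma membrane, differed by -0.23 ± 0.07 (SE; adjusted p = 0.236 in limma). Its control arrays lay between 10.95 and 11.08 and its learning arrays between 10.39 and 10.94, without overlap, as for 0.405% of all tested probe sets. Its paralog Vapb differed by 0.10 ± 0.07 (SE). Adam23, a receptor of the LGI proteins that organise Kv1 complexes, was higher by 0.40 ± 0.14 (SE; adjusted p = 0.264 in limma). Nedd4l, a ubiquitin ligase of Kcnq channels, differed by -0.20 ± 0.08 (SE; adjusted p = 0.349 in limma).

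Of 16 genes of potassium and chloride transport, 8 were tested, with 3 positive and 5 negative differences and a median of -0.04, and 1 had an unadjusted p below 0.05, again beside 13.1% of all tested probe sets. This was Slc12a2, the sodium-potassium-chloride importer NKCC1, with control values of 7.10 to 7.69 and learning values of 7.46 to 7.77, a difference of 0.21 ± 0.09 (SE; adjusted p = 0.339 in limma). Slc12a5, the potassium-chloride exporter KCC2, differed by -0.04 ± 0.07 (SE).

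Markers of the dissected and neighbouring cells were set beside these values. Prox1, the transcription factor of granule cells, was present in both groups at 10.26 ± 0.25 in control and 10.33 ± 0.17 in learning rats (SD, n = 7 each). The mean of the 4 tested granule cell markers of 9 listed was higher in learning rats by 0.17 (control arrays 9.37 to 9.66, learning arrays 9.56 to 9.82). That mean was carried by Dsp (0.44) and Stxbp6 (0.22), while Prox1 differed by 0.08 and Calb1 by -0.03. The mean of the 5 tested CA1 markers of 9 was higher by 0.32 (6.88 to 7.92 against 7.39 to 7.79). Its members differed unequally, with Wfs1 at 0.95, Mpped1 at 0.37, Fibcd1 at 0.31, Lmo3 at 0.0025 and Itpka at -0.05. The mean of the 6 tested CA3 markers of 8 differed by -0.02 (8.66 to 9.03 against 8.61 to 8.87), with members in both directions. An unadjusted limma p below 0.05 was reached by 4 of the 6, where 13.1% of all tested probe sets had one that low. Of these, Bok (0.29) and Chgb (0.16) were higher and Cadm1 and Elavl4 (both -0.27) lower. Grik4 differed by 0.13 and Nnat by -0.14. The mean of the 6 tested meningeal markers of 8 differed by -0.49 (5.31 to 8.16 against 5.10 to 8.10). The 4 tested endothelial markers of 6 differed by 0.02 and the 2 tested thalamic markers of 4 by 0.02. Ap2s1, the 1 tested mossy cell marker of 5, differed by 0.15, and Hbb, the 1 tested blood marker of 4, by -0.03. The 8 astrocyte markers differed by -0.06 (10.55 to 10.86 against 10.54 to 10.69) and the 6 tested microglial markers of 7 by -0.12 (7.07 to 7.63 against 7.21 to 7.37). The 6 tested oligodendrocyte markers of 7 differed by 0.02 (9.60 to 10.35 against 9.75 to 10.20). Control replicate 4 was the highest of the 14 arrays for the astrocyte (10.86), microglial (7.63) and oligodendrocyte (10.35) means. Leaving this array out changed several channel differences, as given with those genes. The part of its marker levels in those changes was not tested. The 4 tested interneuron markers of 8 differed by 0.0018, with Gad1 at -0.19, Pvalb at -0.01, Cck at 0.09 and Npy at 0.12. The 4 tested choroid plexus markers of 8, which include Kcne2, differed by -0.53 (5.91 to 7.56 against 5.83 to 6.84). That mean was carried by Ttr (-1.78) and Igf2 (-0.49), while Enpp2 differed by -0.04 and Kcne2 by 0.18, the other way.

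With the CA1 marker mean as covariate, the Kcnj4 difference was -0.42 on 1369487_a_at and -0.30 on 1371114_at, and with the meningeal marker mean -0.39 and -0.23. The corresponding values were 0.31 and 0.22 for Kcna1, 0.22 and 0.15 for Kcna6, and 0.31 and 0.21 for Kcnv1. The part of the granule cell, CA3, astrocyte, microglial and remaining marker differences in these values was not tested.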

How the data were processed

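Dentate gyrus RNA from 14 rats was hybridised to 1 RAE230A array each. The authors deposited log2 values; the submitters' processing notes name GCRMA without a version. Titles gave each array's group and number. The number of arrays limits the precision. Of 15866 probe sets, the 9387 averaging 4 or more entered a limma fit (version 3.58.1, R 4.3.3) of learning minus control, 7 against 7, with Benjamini-Hochberg adjustment. The fit was also tested on simulated data with independent probe sets, which cannot show how it behaves where probe sets vary together. Intervals are 95% intervals. A gene was represented by its tested probe set of highest mean.

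Values by array are given for the 3 genes of smallest p in each functional group, for genes with an unadjusted p below 0.05 or without overlap, and for a list of well-known channel genes. Members and lists were chosen with earlier results of these data known. All 76 gene identifiers matched the GRCr8 gene table. Same-numbered arrays of the groups had correlations of -0.28 to 0.26 and were not treated as pairs in the reported fit. Several control arrays nevertheless correlated best with the learning array of their own number, and the replicate block below takes the number into account. Alternatives were other filters, a floor of 3, quantile normalization, median centring, another prior, array weights, a replicate block, the mean of a gene's probe sets, leaving out cross-hybridising probe sets, marker means as covariates, and leaving out each array. Protein sequences were not used here.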

Additional observations from a re-analysis of the deposited data

Results flagged for a closer look

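In 14 of the 88 groups of 7 arrays examined (44 tested channel probe sets in each group), 1 array lay farther from the others than Dixon's 95% limit, which chance gives in about 1 group in 20. The limit was not applied to the other tested probe sets, so the count is not shown to be particular to the channels. No explanation was tested. All values are log2 expression, with the nearest other array of the group after each.

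Control replicate 4 was the lowest of its group for Kcnd3 on 1369145_a_at (4.35, nearest 4.63), Kcnma1 (7.60, nearest 8.01) and Kcnj14 (5.40, nearest 5.49). Control replicate 1 was the highest for Kcnc2 on 1370439_a_at (8.73, nearest 8.34) and the lowest for Kcnq3 on 1369005_at (3.99, nearest 4.18). Control replicate 2 was highest for Kcnc4 (9.26, nearest 9.11), and control replicate 5 for Kcnd1 (4.40, nearest 4.13).

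Among learning arrays, replicate 1 was the highest for Kcnq3 on 1369005_at (5.32, nearest 4.40). Learning replicate 2 was highest for Kcnc2 on 1370559_at (4.65, nearest 4.35) and lowest for Kcnj9 (4.16, nearest 4.46). Learning replicate 3 was lowest for Kcnh1 (3.11, nearest 4.10) and highest for Kcnj6 on 1370704_at (4.65, nearest 4.48). Learning replicate 5 was highest for Kcne2 on 1386770_x_at (5.09, nearest 4.55) and lowest for Kcnip2 on 1370773_a_at (7.64, nearest 8.14).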

How the results depend on the processing

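No channel probe set passed an adjusted p of 0.05 in limma under any alternative run, and the lowest adjusted p reached by a named difference was 0.110. Of the 22 named differences, 14 kept their sign in every alternative and 8 turned it in at least 1. Kcnj4 kept its direction, at -0.45 to -0.33 on 1369487_a_at (adjusted p 0.110 to 0.320 in limma, 24 alternatives). For 1371114_at the range was -0.32 to -0.19 (adjusted p 0.162 to 0.412 in limma, 26 alternatives). Its ends of -0.32 and 0.162 came from averaging both Kcnj4 probe sets, not from 1371114_at alone. Kcnip3 reversed to -0.048 with the CA1 marker mean as covariate. The number of channel probe sets at an unadjusted p below 0.05, 5 in the reported fit, was 3 with a mean of at least 5, where fewer probe sets are tested, and 3 with the meningeal covariate, for which the cause was not tested. Leaving out each array gave 3 (without control replicate 4) to 7 (without control replicate 6). For the alternatives, the share of all tested probe sets at that p is not given here. The shifts in the count are therefore not shown to be particular to the channels. Without the filter, where more genes are counted, 43 of 76 genes were higher, against 21 of 32 in the reported fit. The median difference was then 0.0047, against 0.034 in the reported fit. Over all tested probe sets, leaving out each array gave 0 to 1 called, the 1 without control replicate 6, learning replicate 1 or learning replicate 4. With the replicate block, 0 channel probe sets were called and 5 were at an unadjusted p below 0.05, but not the same 5. Kcna6 left (adjusted p = 0.402 in limma) and Kcnj6 on 1370598_a_at entered (adjusted p = 0.259 in limma). In all, 4 of 7 control arrays correlated best with the learning array of their own number.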
